A study of Drosophila melanogaster with 21 samples.

Results

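RNA sequencing of fly heads was used to ask whether the transcriptome of flies with simultaneous knockdown of *Cbp20* and *dlg1* equals the sum of the changes seen when each gene is knocked down alone. The comparison uses 15 of the 21 libraries of the series, which fall into 5 groups of 3 biological replicates: *Cbp20/dlg1*, *Cbp20*, *dlg1*, Control GD and Control KK. It is written on the log2 scale as (*Cbp20/dlg1* minus Control KK) minus (*Cbp20* minus Control KK) minus (*dlg1* minus Control GD), so that additivity on this scale means that fold changes multiply. A positive departure means that the pair was higher than the sum of the single effects, and a negative departure that it was lower. Control KK stands in both of the first terms and cancels, which leaves *Cbp20/dlg1* minus *Cbp20* minus *dlg1* plus Control GD, so 12 libraries set each value.

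*Cbp20* encodes the small subunit of the nuclear cap-binding complex, which binds the cap of newly made RNA and takes part in splicing, export and small RNA pathways. *dlg1* (discs large) encodes a scaffold protein of synapses and of the septate junctions between epithelial cells. Both were targeted by RNAi hairpins under *Elav-GAL4*, a driver active throughout the nervous system, whereas the RNA came from whole heads, which also hold fat body, blood cells, cuticle-forming cells, glia and muscle. In such bulk samples, fewer cells of a type and less RNA per cell cannot be told apart.

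All flies were F1 females that carried w1118 and 1 copy of *Elav-GAL4* and were reared at 25 °C, and their age was not given in the sources used here. In the study's stock list, *Cbp20/dlg1* flies were y1 w1118,Elav-GAL4/w1118 with both P{KK109448}/+ and P{GD4689}/+, from a line in which the driver had been combined with the *Cbp20* hairpin. *Cbp20* flies carried w1118,Elav-GAL4/y1 w1118 with P{KK109448}/+, *dlg1* flies w1118,Elav-GAL4/w1118 with P{GD4689}/+, Control GD flies w1118,Elav-GAL4/w1118 and Control KK flies w1118,Elav-GAL4/y1 w1118. KK and GD are collections of RNAi lines made in different host strains. The pair therefore mixes both backgrounds and carries both transgenes, each single knockdown carries its own background and 1 transgene, and the controls carry no hairpin, so that background and transgene number cannot be told apart from knockdown where they move together. Each knockdown rests on 1 RNAi line.

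The 15 libraries hold between 17712938 and 28036570 reads counted on genes, and the median library holds 22289840. Levels are given in CPM, the count of a gene scaled to the TMM-normalized size of its library, and a count of 3, taken as the floor of a library for counting error only, equals 0.107 to 0.169 CPM. Reads that aligned to more than 1 place made up 29.7 to 59.1% of the reads of the *dlg1* libraries and 14.1 to 27.02% of those of the other 4 groups. Head markers were present in every group. The photoreceptor opsin *ninaE* had 37238 to 37846 CPM in *Cbp20/dlg1*, 31750 to 36149 in *Cbp20*, 38535 to 40500 in *dlg1* and 34622 to 35911 in Control GD, and the glial gene *repo* had 53.4 to 59.1 CPM in *Cbp20/dlg1*, 54.0 to 61.3 in *Cbp20*, 52.6 to 58.2 in *dlg1* and 59.4 to 69.9 in Control GD. The neuronal gene *elav* had 211 to 265 CPM in *Cbp20/dlg1*, 278 to 313 in *Cbp20*, 251 to 301 in *dlg1* and 234 to 259.9 in Control GD, so that its *Cbp20* libraries lay above those of the pair.

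The targeted genes were examined first. *Cbp20* (chr3R:18164661-18165439 of the BDGP6.54 annotation) had 5.71, 6.21 and 5.81 CPM in *Cbp20/dlg1*, 5.08, 5.63 and 5.19 in *Cbp20*, 11.8, 13.8 and 11.7 in *dlg1*, 13.9, 12.6 and 13.4 in Control GD and 14.7, 14.3 and 14.5 in Control KK. All 6 libraries with the *Cbp20* hairpin lay below all 9 without it, and the pair (log2 fold change -1.30 against Control KK, FDR = 1.45e-08) and the single knockdown (-1.45, FDR = 4.75e-09) both fell. The *dlg1* transcript (chrX:11369665-11409776) had 337, 345 and 276 CPM in *Cbp20/dlg1*, 441, 434 and 436 in *Cbp20*, 338, 352 and 371 in *dlg1*, 411, 408 and 388 in Control GD and 406, 416 and 397 in Control KK. Its level in *dlg1* flies did not pass the threshold against Control GD (-0.19, FDR = 0.316), and in the pair it was -0.35 against Control KK (FDR = 0.0238), short of the fold threshold. Neither targeted gene departed from additivity, with 0.25 ± 0.13 (SE, FDR = 0.208) for *Cbp20* and -0.27 ± 0.14 (FDR = 0.195) for *dlg1*. The hairpins were driven in neurons and the RNA came from whole heads, so these levels are no measure of the knockdown in neurons. By qPCR on fly heads with the same driver, the study reported partial knockdown of both genes.

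Across 10558 tested genes, 466 departed from additivity (4.41%), with a log2 departure above 1 or below -1 and an FDR under 0.05 in edgeR's quasi-likelihood test (Benjamini-Hochberg correction). The pair was higher than the sum for 330 of them (3.13% of tested genes) and lower for 136 (1.29%). Most genes lay close to additivity, with a median departure of 0.000437 and an interquartile range of -0.20 to 0.22 on the log2 scale. Of the departing genes, 319 had a mean of at least 5 CPM in the highest of the 4 groups of the contrast. On the linear CPM scale, where additivity means that differences add up, 463 of the 466 had a departure of the same sign. Only the sign was counted, whatever the size, which was 0.109 CPM for *Gnmt*.

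**Figure D1:**
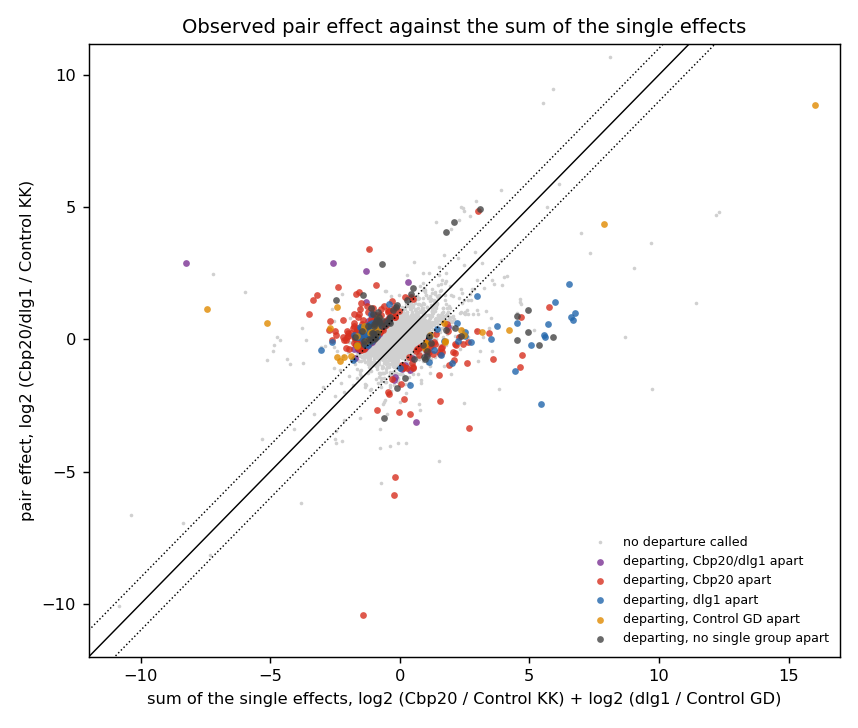
The effect of the pair against Control KK (log2, vertical axis) is plotted against the sum of the *Cbp20* and *dlg1* effects (log2, horizontal axis) for 10558 genes, with the solid line at equality and dotted lines 1 log2 unit away. Departing genes are coloured by the group that stood apart. Departing genes lie mostly between -5 and 5 on the vertical axis, to the left of the dotted lines where the pair was higher than the sum and to the right where it was lower, and the point at the far right is *Hsp70Bb*.

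A single effect often passed the threshold where the pair did not, which does not show that the effect was absent from the pair. In 226 departing genes exactly 1 single knockdown passed the threshold against its own control and the pair did not, namely *Cbp20* in 150 and *dlg1* in 76. The most frequent such pattern was a gene that fell in *Cbp20* alone (115 genes, all with a positive departure), and next came genes that fell in *dlg1* alone (41), rose in *Cbp20* alone (35) or rose in *dlg1* alone (35). The pair passed the threshold without either single knockdown in 47 departing genes, 22 of which had risen. In 164 departing genes none of the 3 effects passed the threshold by itself. Among all tested genes, 2.03% passed the threshold in the pair against Control KK (1.3% higher and 0.729% lower), 3.24% in *Cbp20* against Control KK (1.18% higher and 2.06% lower) and 1.96% in *dlg1* against Control GD (1.29% higher and 0.672% lower). Between the pair and *Cbp20* alone, 4.35% passed (2.84% higher and 1.51% lower in the pair). These effects share the libraries of the contrast and describe the departures rather than test them again.

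To say which group drives each departure, the mean levels of the 4 groups were compared on a log2(CPM + 0.5) scale, and a group was taken to stand apart where the range of the other 3 was under 0.5 of the departure. *Cbp20* stood apart for 224 departing genes (48.1%), *dlg1* for 78 (16.7%), *Cbp20/dlg1* for 66 (14.2%) and Control GD for 34 (7.30%), and no single group did for 64 (13.7%). *Cbp20* was the low group in 161 of its genes and the high group in 63. Among the *dlg1* genes, *dlg1* was low in 49 and high in 29. The pair was high in 55 of its 66 genes. Where the pair and Control GD lie on the same side of both single knockdowns, the rule always names a group, barring an exact tie. The split therefore depends on the share chosen. Under a smaller share, *Cbp20* was left with 67 genes, *dlg1* with 31, *Cbp20/dlg1* with 5 and Control GD with 10, and no single group stood apart for 140. In the rest, the pair and Control GD were on the same side of both single knockdowns.

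**Figure D2:**
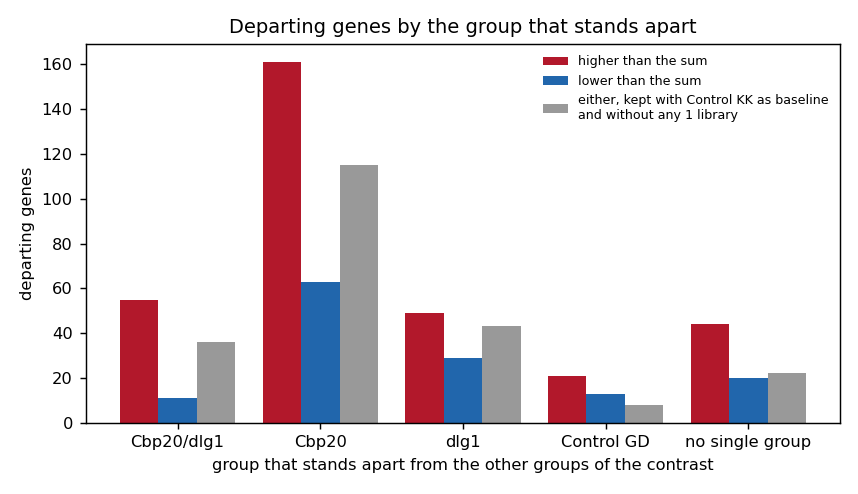
Bars give the number of departing genes by the group that stood apart, higher (red) and lower (blue) than the sum, and the number in either direction that was kept both with Control KK as the baseline of *dlg1* and in each of 15 fits without 1 library (gray). *Cbp20* had the tallest bars, 161 higher and 63 lower, with 115 kept.

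The choice of control and single libraries bear on these counts. With Control KK in place of Control GD as the baseline of *dlg1*, 710 genes departed (6.72% of those tested, 4.77% higher and 1.95% lower), 318 of the 466 were kept in the same direction and 8 turned to the opposite call. The controls themselves differed at 355 of the 10558 genes (3.36%, with 1.64% higher and 1.72% lower in Control KK), and 100 departing genes were among those 355, of which 25 were kept with the other baseline. In fits that left out each of the 15 libraries in turn, 303 of the 466 departures were kept every time, and 224 were kept both there and with the other baseline (181 higher and 43 lower).

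Genes with low levels in *Cbp20* flies formed the largest part of the departures. Of these 161 genes, 77 also passed the threshold against Control KK. For 44 of the 161, the mean of Control KK was nearer to that of *Cbp20* than to that of the pair.

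*CG3699* (chrX:946662-947500) had 26.1, 30.2 and 37.2 CPM in *Cbp20/dlg1*, 1.23, 0.377 and 1.37 in *Cbp20*, 20.1, 22.6 and 18.1 in *dlg1* and 15.6, 14.95 and 13.6 in Control GD. The *Cbp20* libraries were the lowest by far, and Control KK lay between them and the rest at 3.03, 3.01 and 2.80 CPM. The sum of the single effects corresponds to 1.37 CPM, whereas the pair averaged 31.2 ± 5.64 CPM (SD, n = 3). Its departure was 4.59 ± 0.34 (SE, FDR = 3.81e-08), and 2.27 with Control KK as the baseline (FDR = 2.61e-04).

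*Sardh*, which encodes sarcosine dehydrogenase (chr2R:17753555-17756422), had 12.9, 18.1 and 17.1 CPM in *Cbp20/dlg1*, 0.963, 0.583 and 1.32 in *Cbp20*, 9.81, 14.2 and 8.93 in *dlg1* and 11.99, 13.8 and 13.3 in Control GD. The pair and both GD-background groups overlapped, *Cbp20* lay far below them, and Control KK lay between at 3.90, 3.60 and 4.48 CPM. The departure of *Sardh* was 4.36 ± 0.31 (FDR = 2.54e-08), and 2.66 (FDR = 5.74e-06) with the Control KK baseline. *Gnmt*, whose product methylates glycine to sarcosine, had 6.81, 16.6 and 10.5 CPM in *Cbp20/dlg1*, 1.01, 0.583 and 1.03 in *Cbp20*, 9.90, 50.9 and 27.2 in *dlg1* and 10.5, 17.7 and 28.8 in Control GD. *Cbp20* was again lowest, but the spread within the other groups was wide, no single group stood apart, and the departure (3.11 ± 0.92, FDR = 0.0250) lost its call with the Control KK baseline (0.66, FDR = 0.664). The call was also lost without *Cbp20* replicate 1 (3.24, FDR = 0.0524), *Cbp20* replicate 2 (2.85, FDR = 0.0755), *Cbp20/dlg1* replicate 2 (2.72, FDR = 0.0601) or Control GD replicate 3 (2.68, FDR = 0.0636).

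Single enzyme genes with *Cbp20* low, given here and in the next paragraph, were chosen after their values were seen, and how many enzyme genes did not depart was not counted. *Sodh1*, a sorbitol dehydrogenase gene, had 82.0, 104 and 117 CPM in *Cbp20/dlg1*, 14.6, 10.4 and 18.9 in *Cbp20*, 67.5, 64.1 and 55.6 in *dlg1*, 55.6, 65.6 and 55.3 in Control GD and 54.3, 49.1 and 53.2 in Control KK, so that *Cbp20* lay below all other libraries, those of its own control included. The departure of *Sodh1* was 2.72 ± 0.26 (FDR = 4.72e-07). *Paics*, which serves purine synthesis, had 373, 438 and 438 CPM in *Cbp20/dlg1* and 129, 107 and 136 in *Cbp20*, against 324, 332 and 256 in *dlg1* and 279, 248 and 283 in Control GD (1.57 ± 0.17, FDR = 2.59e-06). The pair was the highest of the 4 groups for *Paics* and *Cbp20* the lowest. *pug*, an enzyme gene of the folate pathway that overlaps *CG14683* on the same strand, had 197, 241 and 210.3 CPM in *Cbp20/dlg1*, 68.3, 66.8 and 77.3 in *Cbp20*, 209, 219 and 178 in *dlg1* and 229.9, 209 and 230.0 in Control GD, so that the *Cbp20* libraries alone were low (1.75 ± 0.14, FDR = 9.67e-08).

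Departures between 1.08 and 1.76 on the log2 scale, each with *Cbp20* apart and low, were seen for *P5CS* (proline synthesis), *Gart* (purine synthesis), *Shmt* (serine and glycine interconversion), *hgo* and *Hpd* (tyrosine breakdown), *v* (tryptophan breakdown), *Agxt* (an aminotransferase), *Ass* and *Argl* (arginine synthesis and breakdown of argininosuccinate). The call of *Gart* was lost without *dlg1* replicate 3, and those of *Shmt* (0.89) and *Hpd* (0.88) fell under the fold threshold with the Control KK baseline. The genes *Gart*, *Shmt*, *Hpd*, *Ass* and *Argl* overlap other genes. For *Hpd*, *Cbp20/dlg1* libraries had 248 to 317 CPM and *Cbp20* libraries 107 to 116 CPM, against 218 to 245 in *dlg1* and 211 to 226 in Control GD. The arginase gene *arg* departed by 1.85 ± 0.39, but it overlaps *elav* over 13792 bases on the opposite strand. *Hao*, a hydroxyacid oxidase gene, departed by 2.25 ± 0.19 (FDR = 1.42e-07), and *hoka*, a septate junction gene, by 2.80 ± 0.21 (FDR = 3.62e-08), with 13.9, 14.8 and 15.1 CPM in the pair and 1.97, 1.92 and 3.23 CPM in *Cbp20*.

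**Figure D3:**
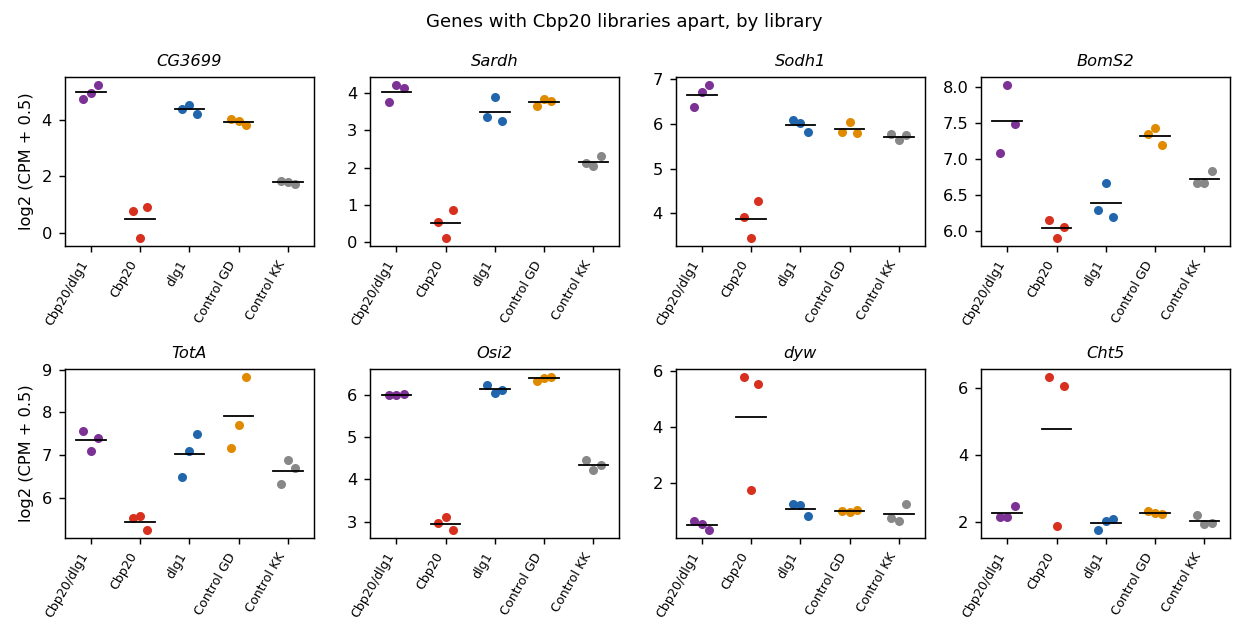
Points are libraries of 8 genes for which *Cbp20* stood apart, on a log2(CPM + 0.5) axis, and lines are group means. In the first 6 genes the *Cbp20* libraries are the lowest, and in *dyw* and *Cht5* replicates 1 and 3 of *Cbp20* are far above the other groups and replicate 2 is close to them.

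The markers of the female head fat body, the tissue that makes many of these enzymes and secreted proteins, had a summed level of 37757 to 49226 CPM in *Cbp20/dlg1*, 19464 to 25444 in *Cbp20*, 27461 to 35896 in *dlg1*, 27098 to 33447 in Control GD and 46098 to 55428 in Control KK. Of the 12 tested markers of that list, 1 departed (*Yp1*, 8.33%, against 4.41% of all tested genes), and their median departure was 0.53, against 0.000437 over all tested genes. *Yp1*, a yolk protein gene also active in head fat body, had 14682, 19254 and 16362 CPM in *Cbp20/dlg1*, 7224, 6963 and 8932 in *Cbp20*, 14015, 12061 and 10468 in *dlg1*, 12979, 11037 and 12543 in Control GD and 18461, 18857 and 21025 in Control KK. Its *Cbp20* libraries were the lowest of all (1.12 ± 0.19, FDR = 2.20e-04). The part of fat body content in the departures of these genes was not tested.

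Genes of immune-induced peptides departed in both directions. Bomanins are short peptides that Toll signaling induces in the fat body, and Turandot peptides are secreted into the blood under stress. Of 12 tested genes with a Bomanin symbol, a family counted after the values were seen, 11 departed, all higher than the sum (3.13% of all tested genes departed higher), and *Cbp20* stood apart for 9 of them. The median departure of the 12 was 1.96. Of the 19 tested genes of the list of antimicrobial and immune-induced peptides, 5 departed higher (*BomS1*, *BomS2*, *BomS3*, *BomBc3* and *BomT1*) and 2 lower (*Def* and *AttD*), against 3.13% higher and 1.29% lower over all tested genes, and the median of the list was -0.90.

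*BomS2* had 135, 261 and 178 CPM in *Cbp20/dlg1*, 70.9, 59.4 and 66.0 in *Cbp20*, 78.0, 102 and 72.7 in *dlg1*, 162, 173 and 146 in Control GD and 101, 101 and 114 in Control KK. Both single knockdowns were low beside Control GD, and the pair was not, so that its mean of 191 CPM stood against 34.3 CPM for the sum of the single effects (2.48 ± 0.28, FDR = 3.63e-06). In *Cbp20* it did not pass the threshold against Control KK (-0.69, FDR = 0.0174), and neither did *BomS1* (-0.22, FDR = 0.681). *BomBc3* had 40.8, 79.3 and 51.4 CPM in *Cbp20/dlg1*, 18.4, 21.9 and 19.9 in *Cbp20*, 29.6, 38.8 and 26.4 in *dlg1* and 52.5, 83.0 and 56.1 in Control GD. Among these 4 groups, *Cbp20* was lowest and *dlg1* next, as for *BomS2*, but the mean of the pair was below that of Control GD. Unlike for *BomS2*, Control KK lay between *Cbp20* and *dlg1*, at 23.9, 22.5 and 25.1 CPM. *BomBc3* fell in *dlg1* against Control GD (-1.02, FDR = 0.0128) and rose in the pair against Control KK (1.26, FDR = 0.00239), and the departure was 2.52 ± 0.36 (FDR = 4.98e-05). *BomT1* (2.27 ± 0.47) and *BomS1* (1.89 ± 0.46) departed as well, but *BomS1* did not pass with the Control KK baseline (0.88, FDR = 0.161). *BomS3* differed in that Control GD stood apart, with 184, 289 and 228 CPM in *Cbp20/dlg1*, 137, 117 and 133 in *Cbp20*, 135, 167 and 118 in *dlg1* and 259, 284 and 253 in Control GD, although the pair reached the level of the control (1.78 ± 0.26, FDR = 7.06e-05).

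*Dso1*, another peptide gene of the Toll response that was chosen after its values were seen, had 358, 568 and 444 CPM in *Cbp20/dlg1*, 151, 159 and 189.9 in *Cbp20*, 229, 254 and 207 in *dlg1* and 383, 418 and 376 in Control GD (2.22 ± 0.21, FDR = 5.41e-07). *Cbp20* was lowest and *dlg1* next. *Sid*, a stress-induced nuclease gene chosen in the same way, had 3.07, 6.52 and 3.96 CPM in the pair, 1.53, 0.892 and 1.86 in *Cbp20*, 3.71, 4.15 and 2.84 in *dlg1* and 10.3, 7.23 and 7.03 in Control GD, and Control KK was close to *Cbp20* at 1.64, 1.46 and 2.102 CPM. Its departure of 2.88 ± 0.40 (FDR = 3.58e-05) was 0.65 (FDR = 0.263) with the Control KK baseline. *Srg3*, named for its regulation by STING, had 28.0, 40.9 and 31.7 CPM in *Cbp20/dlg1*, 4.77, 3.98 and 4.26 in *Cbp20*, 24.7, 13.005 and 18.1 in *dlg1* and 14.4, 11.5 and 30.9 in Control GD, with *Cbp20* below every other library (2.98 ± 0.42, FDR = 4.41e-05). Transposon insertions overlap *Srg3*.

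Of the 8 Turandot genes, 4 passed the filter on low counts, and all 4 of those departed higher (3.13% of all tested genes did). *TotA* had 188, 136 and 168 CPM in *Cbp20/dlg1*, 45.6, 47.0 and 37.6 in *Cbp20*, 90.1, 137 and 179 in *dlg1*, 144, 209 and 457 in Control GD and 79.3, 118 and 104 in Control KK. The *Cbp20* libraries were lowest and Control GD replicate 3 was highest, and the departure was 2.92 ± 0.47 (FDR = 1.62e-04). Replicate 3 of Control GD was also highest for *TotC*, which had 87.1, 61.9 and 61.0 CPM in *Cbp20/dlg1*, 20.8, 20.4 and 15.2 in *Cbp20*, 44.6, 65.8 and 81.9 in *dlg1* and 63.8, 110.1 and 263 in Control GD and departed by 3.08 ± 0.56 (FDR = 5.46e-04). *TotM* had 25.2, 7.89 and 9.87 CPM in *Cbp20/dlg1*, 3.06, 2.06 and 2.50 in *Cbp20*, 7.38, 9.25 and 18.7 in *dlg1* and 9.56, 18.9 and 105 in Control GD. Without Control GD replicate 3, its departure of 4.45 ± 0.99 (FDR = 0.00334) became 2.81 (FDR = 0.00487). Those of *TotA*, *TotC* and *TotX* without that library were 2.31, 2.34 and 1.24, and all 4 kept their call. *TotX* overlaps *Grik* on the opposite strand. *TotM* did not pass with the Control KK baseline (1.88, FDR = 0.190).

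Among the other low genes of *Cbp20*, *Osi2* of the Osiris family had replicates close to each other, with 63.8, 63.3 and 64.6 CPM in *Cbp20/dlg1*, 7.27, 8.10 and 6.47 in *Cbp20*, 74.4, 66.1 and 69.5 in *dlg1*, 80.7, 83.9 and 86.0 in Control GD and 21.4, 18.1 and 19.7 in Control KK. The pair was close to the GD-background groups, and Control KK lay between them and *Cbp20*. *Osi2* departed by 3.38 ± 0.13 (FDR = 2.74e-12), and by 1.30 with the Control KK baseline (FDR = 7.23e-07). *CG34291* was arranged alike, with 8.07, 10.4 and 10.7 CPM in the pair, 1.23, 1.03 and 1.08 in *Cbp20*, 5.76, 8.35 and 6.29 in *dlg1*, 9.15, 7.64 and 6.96 in Control GD and 2.31, 2.60 and 3.54 in Control KK (3.35 ± 0.41, FDR = 8.24e-06). A non-coding RNA gene overlaps it on the opposite strand.

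The detoxification gene *Cyp6g1*, a cytochrome P450 known for insecticide resistance, had 95.7, 116 and 135 CPM in *Cbp20/dlg1*, 37.4, 38.5 and 36.0 in *Cbp20*, 115, 114 and 93.5 in *dlg1*, 158, 144 and 149 in Control GD and 114, 116 and 126 in Control KK. *Cbp20* was below all others and the pair was at the level of Control KK (2.12 ± 0.14, FDR = 1.21e-08). *Cyp6a23* departed by 1.07 ± 0.11 (FDR = 1.68e-06), and fell just under the fold threshold with the Control KK baseline (0.995) and in the first sequencing batch alone (0.92). Of 18 tested detoxification genes, 2 departed higher and 1 lower (16.7%, against 4.41% of all tested genes), with a median of 0.45. Of 15 tested odorant-binding protein genes of the head outside the antennal list, 3 departed, all higher (20%, against 3.13% of all tested genes), with a median of 0.63, and *Cbp20* stood apart for *Obp99c* and *Obp99d*. *Obp99c* had 430.4, 507 and 471 CPM in *Cbp20/dlg1*, 213, 183 and 216 in *Cbp20*, 344, 353 and 293 in *dlg1* and 362, 329 and 361 in Control GD (1.29 ± 0.16, FDR = 8.95e-06). *Obp99d* had 7.40, 5.91 and 8.71 CPM in the pair, 2.67, 1.96 and 2.01 in *Cbp20*, 8.66, 8.69 and 10.1 in *dlg1*, 11.9, 11.5 and 15.2 in Control GD and 3.18, 2.74 and 3.78 in Control KK, so that *Cbp20* and its control were close, and its departure of 2.23 ± 0.24 became 0.24 (FDR = 0.513) with the Control KK baseline. The germline genes *exu* (2.101 ± 0.61, FDR = 0.0223) and *aub* (1.01 ± 0.32, FDR = 0.0350) departed at levels under 4 CPM in every library of the 5 groups. *exu*, which overlaps *galla-1* on the opposite strand, lost its call without Control GD replicate 3 (1.77, FDR = 0.0728). *aub* lost its call with the Control KK baseline (0.32, FDR = 0.497) and in 7 of the 15 fits without 1 library, with values of 0.85 to 1.05.

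High levels in *Cbp20* flies made the reverse set, with 63 departing genes, 31 of which passed the threshold against Control KK. Among them were cuticle genes that were high in some *Cbp20* libraries, and genes that were high in both *Cbp20* and Control KK. For 23 of the 63, the mean of Control KK was nearer to that of *Cbp20* than to that of the pair.

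*dyw* (daywake, a gene of the takeout family of carrier proteins; chrX:2692732-2693886) had 1.05, 0.967 and 0.751 CPM in *Cbp20/dlg1*, 54.6, 2.88 and 45.5 in *Cbp20*, 1.90, 1.79 and 1.25 in *dlg1*, 1.49, 1.45 and 1.57 in Control GD and 1.20, 1.05 and 1.91 in Control KK. Replicates 1 and 3 of *Cbp20* stood far above every other library and replicate 2 only just above. Its departure was -5.32 ± 1.09 (FDR = 0.00175), and -5.87 without that replicate (FDR = 3.49e-09). The same split within *Cbp20* was seen for *Cht5*, a chitinase gene, with 3.95, 3.97 and 5.06 CPM in *Cbp20/dlg1*, 80.6, 3.22 and 66.5 in *Cbp20*, 2.90, 3.64 and 3.79 in *dlg1* and 4.51, 4.32 and 4.26 in Control GD (-3.18 ± 0.98, FDR = 0.0308). Replicate 2 of *Cbp20* lay within the range of the other groups there, and the call of *Cht5* was lost in 11 of the 15 fits without 1 library, though not in the fit without replicate 2. The peroxidase gene *Pxd* had 27.3, 4.25 and 23.4 CPM and *CG5172* had 248, 23.7 and 185 CPM in *Cbp20*, while the pair averaged 1.71 CPM for *Pxd* and 3.68 CPM for *CG5172*. The call of *Pxd*, which overlaps *Adsl* on the opposite strand, was lost in 8 of those fits and that of *CG5172* in none. *Cht5*, *Pxd*, *CG5172* and the cuticle genes that follow were chosen after their values were seen.

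Cuticle protein genes departed in both directions. Of 40 tested genes with a cuticle protein symbol, a family likewise counted after the values were seen, 8 departed lower and 3 higher, with a median of -0.52 (1.29% of all tested genes departed lower and 3.13% higher). *Cbp20* stood apart for 7 of the 8. *Cpr97Ea* had 2.73, 3.51 and 2.15 CPM in *Cbp20/dlg1*, 48.0, 11.1 and 39.1 in *Cbp20*, 2.52, 2.07 and 1.90 in *dlg1* and 4.51, 4.21 and 3.59 in Control GD (-2.63 ± 0.57, FDR = 0.00291). *Cpr62Bc* had 5.34, 5.55 and 4.66 CPM in *Cbp20/dlg1*, 52.6, 23.6 and 44.0 in *Cbp20*, 7.85, 4.71 and 5.09 in *dlg1* and 7.66, 8.50 and 7.78 in Control GD (-2.51 ± 0.34, FDR = 2.84e-05). All 3 *Cbp20* libraries were above the rest for both genes, replicate 2 least. *verm*, a gene of chitin modification, had 48.0, 48.6 and 44.7 CPM in *Cbp20/dlg1*, 143, 62.2 and 114 in *Cbp20*, 60.5, 55.5 and 52.5 in *dlg1* and 60.2, 59.9 and 64.7 in Control GD (-1.04 ± 0.25, FDR = 0.00661), and its call was lost in 3 of the 15 fits without 1 library and with the Control KK baseline (-0.99). Among the 319 departing genes of at least 5 CPM, *Cbp20* replicate 2 was more than 3-fold below both other *Cbp20* libraries for 13, and no other library of the 4 groups stood apart in this way for more than 2 genes in one direction. Without *Cbp20* replicate 2, 175 genes departed lower in place of 136.

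Other genes high in *Cbp20* were as high in its control. *lncRNA:CR40469*, a non-coding RNA gene, had 0.0420, 0.0509 and 0 CPM in *Cbp20/dlg1*, 47.6, 47.8 and 49.9 in *Cbp20*, 0, 0 and 0.0499 in *dlg1*, 0, 0.0746 and 0.0748 in Control GD and 45.6, 51.0 and 54.7 in Control KK. It was high in *Cbp20* and Control KK, and the 9 libraries of *Cbp20/dlg1*, *dlg1* and Control GD are under the floor of 3 counts. The fitted departure was -8.98 ± 2.59 (FDR = 0.0210) but depends on the value given to groups without counts, and it became 0.78 with the Control KK baseline (FDR = 0.708). Without *dlg1* replicate 3, the only *dlg1* library with a count, it was -6.94 (FDR = 0.982). *Hsc70-2*, a gene of the Hsp70 chaperone family, had 0.546, 0.204 and 0.701 CPM in *Cbp20/dlg1*, 10.7, 12.4 and 11.2 in *Cbp20*, 0.333, 0.448 and 0.449 in *dlg1*, 0.0902, 0.261 and 0.486 in Control GD and 18.6, 17.9 and 17.6 in Control KK. *CG31157* was likewise high in *Cbp20* (5.47, 5.42 and 4.85 CPM) and Control KK (7.56, 7.52 and 8.60 CPM) and at or near the floor elsewhere. The departures of *Hsc70-2* (-5.03 ± 0.56) and *CG31157* (-5.66 ± 0.97) became 0.91 (FDR = 0.147) and 0.68 (FDR = 0.543) with the Control KK baseline. In these 3 genes *Cbp20* did not pass the threshold against its own control, and the pair was at the level of the GD-background groups.

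*CG5246* had 0.756, 0.713 and 0.601 CPM in *Cbp20/dlg1*, 5.16, 3.53 and 6.71 in *Cbp20*, 0.571, 1.01 and 0.798 in *dlg1*, 0.135, 0.112 and 0.0748 in Control GD and 1.44, 1.41 and 1.48 in Control KK. It rose in *Cbp20* (1.82, FDR = 1.84e-04) and in *dlg1* (2.83, FDR = 8.38e-04), although all 3 Control GD libraries hold at most 3 counts and the size of the *dlg1* effect is therefore uncertain. In the pair its value against Control KK was -1.06 (FDR = 0.0547), just short of the threshold. The departure was -5.71 ± 0.59 (FDR = 1.53e-06), and -2.002 with the Control KK baseline (FDR = 0.00472).

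Genes with *dlg1* apart were fewer. In 49 of them *dlg1* flies had low levels that the pair did not share, and 33 of these passed the threshold against Control GD. Genes of blood cells (hemocytes), which circulate in the fly and engulf debris and microbes, were among them. Of 15 tested hemocyte and basement membrane genes, 7 departed, all higher than the sum (*NimC1*, *eater*, *Hml*, *He*, *Glt*, *Ppn* and *Col4a1*; 46.7%, against 3.13% of all tested genes), with a median of 0.89 against 0.000437 over all tested genes. Among these 7, *dlg1* stood apart except for *Glt*, where the pair did, and *He*, where Control GD did. With the Control KK baseline, 5 of the 7 were kept. The summed level of the list was 2610 to 3011 CPM in *Cbp20/dlg1*, 2500 to 2574 in *Cbp20*, 1622 to 1684 in *dlg1* and 2630 to 2643 in Control GD. The part of blood cell number in these values was not tested.

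*NimC1*, which encodes a phagocytosis receptor of plasmatocytes (chr2L:13973158-13976769), had 41.5, 42.8 and 48.7 CPM in *Cbp20/dlg1*, 39.5, 38.2 and 39.6 in *Cbp20*, 10.8, 10.5 and 9.93 in *dlg1* and 36.2, 38.3 and 34.1 in Control GD. The 3 *dlg1* libraries were more than 3-fold below any of the other 3 groups given, and the pair was above every library of Control GD (departure 1.98 ± 0.10, FDR = 9.45e-11). *Hml* (hemolectin, a clotting protein of hemocytes) had 232, 229 and 224 CPM in *Cbp20/dlg1*, 172, 191 and 191 in *Cbp20*, 88.2, 85.8 and 86.5 in *dlg1* and 207, 226 and 198 in Control GD (1.59 ± 0.13, FDR = 1.42e-07). *eater*, another phagocytosis receptor gene, had 15.3, 13.03 and 16.8 CPM in the pair, 9.94, 10.1 and 12.4 in *Cbp20*, 5.95, 5.94 and 5.79 in *dlg1* and 12.8, 14.95 and 12.1 in Control GD (1.65 ± 0.17, FDR = 1.21e-06). In all 3 genes the *dlg1* libraries lay below every other library, and those of the pair lay within or above the range of Control GD.

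Further hemocyte genes, chosen after their values were seen, were arranged alike. Of 9 tested genes with a Nimrod symbol, 7 departed, all higher than the sum (3.13% of all tested genes did), with a median of 1.27, and *dlg1* stood apart for 5. *Sr-CI*, a scavenger receptor gene, had 47.3, 47.1 and 53.8 CPM in *Cbp20/dlg1*, 30.6, 33.7 and 33.6 in *Cbp20*, 19.9, 21.5 and 18.7 in *dlg1* and 43.4, 50.9 and 43.9 in Control GD (1.80 ± 0.12, FDR = 1.43e-08). *PPO2*, a prophenoloxidase gene of crystal cells, had 114, 92.9 and 95.3 CPM in the pair, 67.6, 91.8 and 80.2 in *Cbp20*, 31.7, 42.4 and 30.6 in *dlg1* and 85.4, 93.1 and 98.3 in Control GD (1.74 ± 0.17, FDR = 8.75e-07). Levels were lowest in *dlg1* for both. The matrix genes were nearer the threshold. *Ppn* (papilin) departed by 1.04 ± 0.16 and *Col4a1* (a collagen IV chain) by 1.002 ± 0.16, with fits without 1 library between 0.97 and 1.15 for *Ppn*, 3 of them under 1, and from 0.94 for *Col4a1*, 6 of them under 1. With the Control KK baseline *Col4a1* departed by 0.81, under the fold threshold. *He* (hemese), a surface protein gene of hemocytes, was below 1 CPM, with 0.672, 0.458 and 0.651 CPM in the pair, 0.394, 0.446 and 0.441 in *Cbp20*, 0.428, 0.224 and 0.299 in *dlg1* and 0.992, 0.671 and 0.785 in Control GD, and Control GD stood apart (1.80 ± 0.42, FDR = 0.00467). Its call was lost with the Control KK baseline (1.23, FDR = 0.0642).

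Single genes of the nervous system lists were also low in *dlg1* alone. *nAChRbeta3*, which encodes a subunit of the nicotinic acetylcholine receptor (chr2L:545129-547096), had 32.0, 28.7 and 29.2 CPM in *Cbp20/dlg1*, 26.0, 30.5 and 27.1 in *Cbp20*, 12.2, 11.3 and 13.8 in *dlg1* and 26.1, 32.0 and 31.1 in Control GD. The *dlg1* libraries lay below every other library, and the departure was 1.36 ± 0.14 (FDR = 1.01e-06). It lies within *Ets21C* on the opposite strand. *nAChRbeta3* was the only departing gene of 25 tested neurotransmitter receptor genes, whose median was -0.29, a share of 4% that is near the 4.41% of all tested genes. *alrm*, a gene of astrocyte-like glia that lies within *Fur1* on the same strand, had 59.1, 60.5 and 69.7 CPM in *Cbp20/dlg1*, 77.7, 71.1 and 64.5 in *Cbp20*, 32.2, 27.5 and 24.9 in *dlg1* and 66.1, 64.4 and 62.0 in Control GD. Its *dlg1* libraries were all below the rest, and its departure of 1.01 ± 0.13 (FDR = 1.89e-05) fell under the fold threshold in 5 of the 15 fits without 1 library, the lowest at 0.93, and with RLE size factors or DESeq2.

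**Figure D4:**
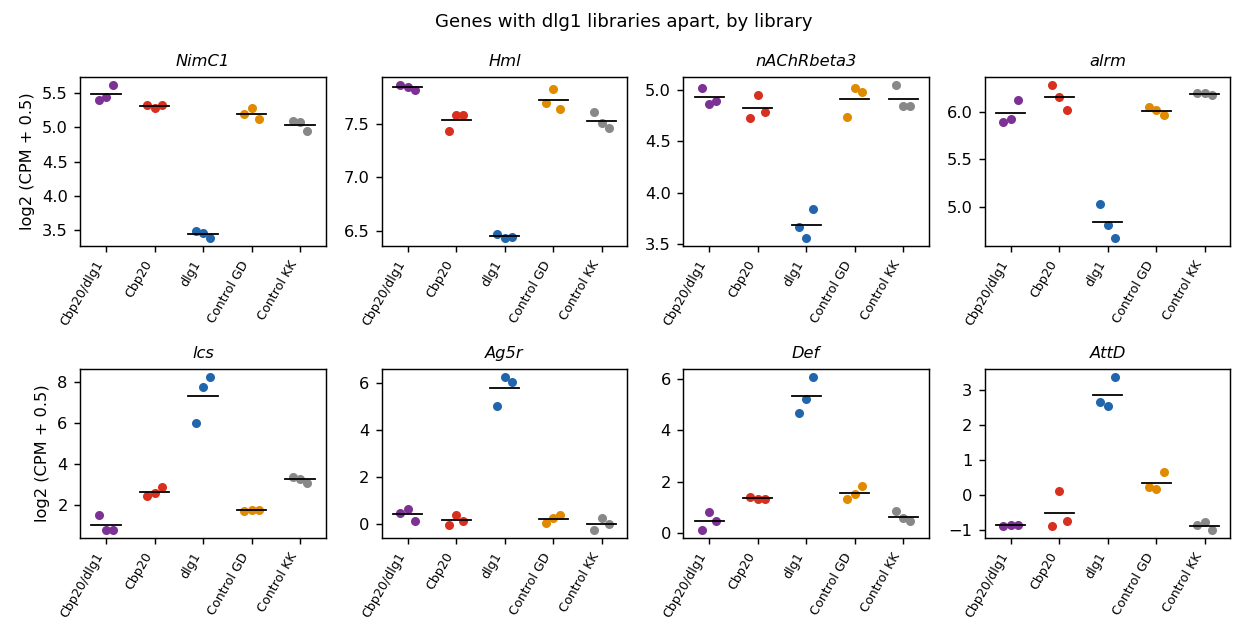
Points are libraries of 8 genes for which *dlg1* stood apart, on a log2(CPM + 0.5) axis, and lines are group means. In *NimC1*, *Hml*, *nAChRbeta3* and *alrm* the *dlg1* libraries are the lowest, and in *lcs*, *Ag5r*, *Def* and *AttD* they are the highest, with the pair near the other groups.

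In 29 departing genes *dlg1* was instead the high group, and 25 of these passed the threshold against Control GD. *lcs* (chrX:21396727-21397316) had 2.39, 1.22 and 1.25 CPM in *Cbp20/dlg1*, 4.95, 5.56 and 6.96 in *Cbp20*, 64.4, 215 and 309.7 in *dlg1*, 2.75, 2.91 and 2.92 in Control GD and 10.01, 9.26 and 7.98 in Control KK. It rose in *dlg1* by 6.10 on the log2 scale (FDR = 1.26e-08), most in replicates 2 and 3, whereas in the pair it fell against Control KK (-2.44, FDR = 0.00451). The departure was -7.89 ± 0.69 (FDR = 2.23e-07). *Ag5r*, of the antigen 5-related secreted proteins, had 0.882, 1.07 and 0.601 CPM in the pair, 0.481, 0.789 and 0.588 in *Cbp20*, 31.5, 76.5 and 64.7 in *dlg1* and 0.541, 0.708 and 0.785 in Control GD (-5.95 ± 0.66, FDR = 3.00e-06). Its high level was confined, among these 4 groups, to *dlg1*.

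The antibacterial peptide genes *Def* and *AttD* were high in *dlg1*. *Def* (defensin), which overlaps *magu* on the opposite strand, had 0.588, 1.27 and 0.901 CPM in *Cbp20/dlg1*, 2.19, 1.99 and 2.01 in *Cbp20*, 25.4, 36.5 and 67.7 in *dlg1* and 1.98, 2.39 and 3.07 in Control GD, so that *dlg1* was the highest and the pair the lowest (-5.29 ± 0.50, FDR = 5.38e-07). *AttD* (attacin D) had 0.0420, 0.0509 and 0.0501 CPM in the pair, 0.0438, 0.583 and 0.0980 in *Cbp20*, 5.85, 5.33 and 9.98 in *dlg1* and 0.676, 0.634 and 1.08 in Control GD. All 3 libraries of the pair are under the floor of 3 counts, so the size of its departure (-5.49 ± 1.18, FDR = 0.00249) is uncertain, and the call was lost without *Cbp20* replicate 2 (-3.63, FDR = 0.150).

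*CG34212* had 0.966, 0.102 and 0.300 CPM in *Cbp20/dlg1*, 0.0875, 0.172 and 0.343 in *Cbp20*, 11.6, 22.3 and 25.4 in *dlg1* and 0.0451, 0.336 and 0.0374 in Control GD. *CG33109* (7.62, 19.2 and 9.43 CPM in *dlg1* and 0.180, 0.112 and 0.187 in Control GD) and *CG8708* (2.48, 7.46 and 7.83 in *dlg1* and 0, 0.149 and 0.224 in Control GD) were high in *dlg1* as well, and the libraries of the pair and of *Cbp20* had at most 0.504 CPM for *CG33109* and 0.100 CPM for *CG8708*. Levels near the floor of 3 counts make the sizes of these departures uncertain. Their fitted departures were -5.76 ± 1.25 for *CG34212*, -5.37 ± 1.04 for *CG33109* and -5.65 ± 1.72 for *CG8708*. The call of *CG8708* was lost without *Cbp20* replicate 1 (-5.77, FDR = 0.0601) or *Cbp20* replicate 3 (-5.17, FDR = 0.141). *Hsp70Bc* (-2.41 ± 0.68, FDR = 0.0179) had 0.571, 3.25 and 0.998 CPM in *dlg1* and its call was lost without replicate 2, where the departure was -1.40 (FDR = 0.0623), and with the Control KK baseline (-1.74, FDR = 0.0549). It is a near-identical copy of other Hsp70 genes, so its reads are uncertain. *Cyp4g1*, a P450 of the hydrocarbon-producing oenocytes chosen after its values were seen, was high in 1 of the *dlg1* libraries (6.85, 1.96 and 116 CPM, with 2.30, 4.51 and 0.150 CPM in Control GD), and lost its call without that library and in 7 other such fits.

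For 66 departing genes the rule placed the pair apart, 55 high and 11 low, and under the smaller share 5 genes were left to it. Control GD can lie on the same side as the pair in such genes. Against Control KK, the pair passed the threshold in 4 of the 55 and in 6 of the 11. For 37 of the 55, the mean of Control KK was nearer to the pair than to Control GD. With the Control KK baseline, 61 of the 66 were kept. That change adds Control KK minus Control GD to each departure. It enlarges the departure where Control KK lies toward the pair, so this count is a description. For 62 of the 66, the mean of *Cbp20/Fsn*, which is outside the contrast, was nearer to the pair than to *Cbp20*, though not always at the level of the pair. Standing apart is judged here only among the 4 groups of the contrast.

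*CG16926* (chr2R:19500295-19501418), chosen after its values were seen, had 57.6, 63.3 and 82.6 CPM in *Cbp20/dlg1*, 12.3, 6.76 and 13.7 in *Cbp20*, 18.5, 26.5 and 23.3 in *dlg1*, 29.1, 22.5 and 19.7 in Control GD and 22.6, 23.6 and 29.6 in Control KK. The pair was above every library of every other group, and the sum of the single effects corresponds to 10.4 CPM against a mean of 67.8 CPM. It fell in *Cbp20* (-1.23, FDR = 2.93e-04), rose in the pair (1.42, FDR = 6.93e-05) and departed by 2.72 ± 0.30 (FDR = 2.49e-06). *TotX*, the fourth Turandot gene, had 7.90, 7.08 and 9.87 CPM in *Cbp20/dlg1*, 4.03, 2.64 and 4.56 in *Cbp20*, 4.24, 4.99 and 3.34 in *dlg1* and 4.24, 4.59 and 13.5 in Control GD. Replicate 3 of Control GD lay above the pair, and the departure was 2.01 ± 0.48 (FDR = 0.00614). Control KK had 5.49, 7.11 and 7.01 CPM for *TotX* and overlapped the pair. *Obp83cd*, an odorant-binding protein gene, had 7.31, 7.33 and 9.17 CPM in the pair, 3.37, 4.60 and 3.77 in *Cbp20*, 5.14, 4.82 and 3.54 in *dlg1* and 5.09, 5.67 and 4.71 in Control GD (1.21 ± 0.22, FDR = 6.48e-04).

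*Glt* (glutactin, a protein of basement membranes; chr2L:8672698-8676804) had 460.3, 602 and 512 CPM in *Cbp20/dlg1*, 276, 254 and 323 in *Cbp20*, 315, 307 and 273 in *dlg1*, 403, 355 and 385 in Control GD and 654, 671 and 728 in Control KK. The pair lay between the 2 controls, and both single knockdowns lay below Control GD. *Glt* fell in *Cbp20* (-1.27, FDR = 3.04e-08), whereas the values were -0.35 in *dlg1* (FDR = 0.0245) and -0.38 in the pair (FDR = 0.0109). Its departure was 1.24 ± 0.14 (FDR = 2.83e-06), and 2.08 with the Control KK baseline (FDR = 6.28e-09). *Ilp6*, an insulin-like peptide gene expressed in fat body that overlaps *Raf* on the opposite strand, had 51.5, 53.7 and 53.7 CPM in the pair, 28.6, 27.1 and 31.8 in *Cbp20*, 37.9, 36.5 and 34.5 in *dlg1*, 44.5, 36.6 and 40.9 in Control GD and 45.8, 47.6 and 53.8 in Control KK (1.03 ± 0.12, FDR = 3.57e-06). The pair was at the level of Control KK, and the call of *Ilp6* was lost in 3 of the 15 fits without 1 library. *P5cr-2*, of proline synthesis and overlapped on the opposite strand by another gene, had 45.4, 51.3 and 57.0 CPM in *Cbp20/dlg1*, 19.8, 20.9 and 20.97 in *Cbp20*, 35.7, 31.3 and 23.4 in *dlg1* and 35.2, 28.4 and 32.2 in Control GD (1.40 ± 0.19, FDR = 3.21e-05). Control KK was higher still at 65.7, 63.0 and 69.6 CPM, so that every library of the pair lay below it. *Ilp6* and *P5cr-2* were chosen after their values were seen.

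Among the 11 genes low in the pair, 4 had a mean of at least 5 CPM in their highest group, namely *CG9759*, *CG15282*, *esc* (a Polycomb group gene) and *Listericin* (an antibacterial peptide gene), and all 4 lie outside the rule for named genes. *CG9759* had 1.97, 1.83 and 2.15 CPM in *Cbp20/dlg1*, 17.7, 24.8 and 19.6 in *Cbp20*, 7.52, 14.4 and 11.1 in *dlg1*, 6.09, 4.66 and 14.4 in Control GD and 17.5, 16.96 and 18.1 in Control KK. The pair was below every library of the other 4 groups, fell against Control KK (-3.14, FDR = 1.05e-05) and departed by -3.76 ± 0.48 (FDR = 1.57e-05). The departures of the other 3 were -1.58 for *CG15282*, -1.18 for *esc*, which lies within *Pde1c* on the same strand, and -1.16 for *Listericin*, and each of these calls was lost in 1 or more of the fits without 1 library.

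**Figure D5:**
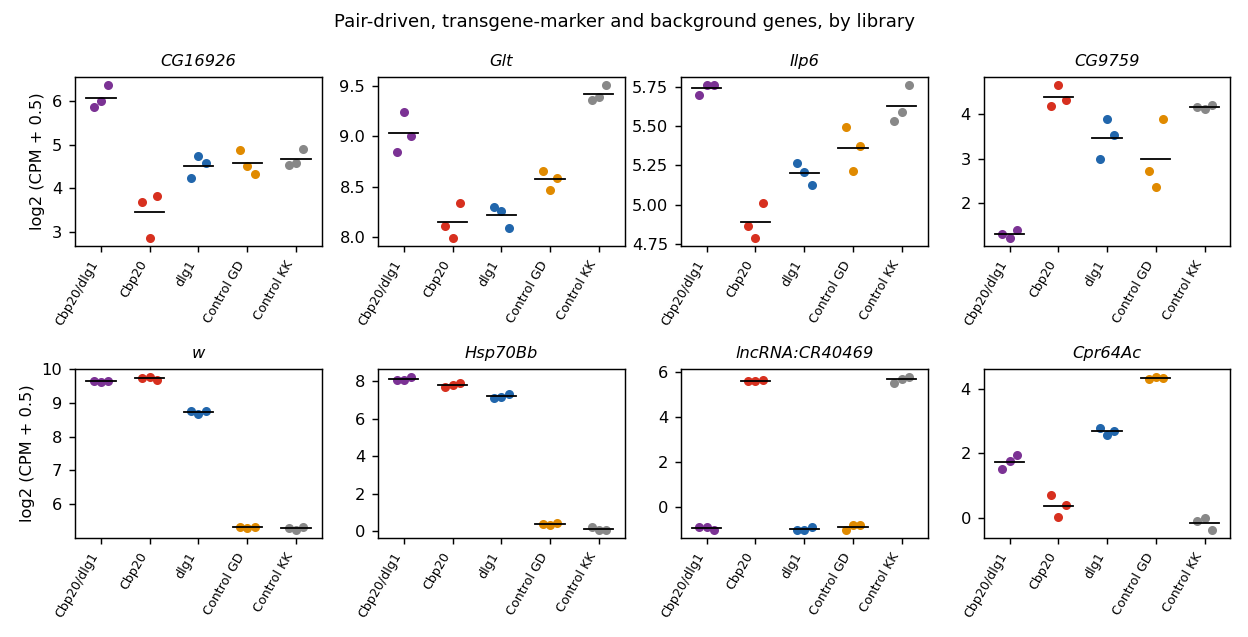
Points are libraries of 8 genes on a log2(CPM + 0.5) axis, and lines are group means. The upper row shows genes for which the pair stood apart, and the lower row *w* and *Hsp70Bb*, which were high in all 3 knockdown groups and low in both controls, *lncRNA:CR40469*, which was high in *Cbp20* and Control KK, and *Cpr64Ac*, which was highest in Control GD.

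Control GD stood apart for 34 genes, and among those with a negative departure were *w* and *Hsp70Bb*, genes whose sequences RNAi constructs can carry. RNAi lines are marked by a copy of the eye color gene *w* (white), and their vectors hold Hsp70 sequences. *w* had 797, 780.5 and 802 CPM in *Cbp20/dlg1*, 844, 876 and 813 in *Cbp20*, 437, 407 and 434 in *dlg1*, 39.5, 39.0 and 39.4 in Control GD and 38.8, 37.2 and 39.3 in Control KK. All 9 knockdown libraries were far above the 6 controls, and the pair, with 2 transgenes, was not above *Cbp20*, with 1. The departure of *w* was -3.53 ± 0.08 (FDR = 1.07e-16), and on the linear scale the sum corresponds to 1231 CPM against a mean of 793 CPM in the pair. *Hsp70Bb* had 267, 262 and 299.8 CPM in *Cbp20/dlg1*, 202, 218 and 235 in *Cbp20*, 135, 142 and 160.2 in *dlg1*, 0.812, 0.746 and 0.860 in Control GD and 0.674, 0.547 and 0.545 in Control KK (-7.15 ± 0.14, FDR = 1.27e-17). The knockdown groups were again all high. Counts of these 2 genes can include reads from the transgenes, *w* overlaps *kirre* on the opposite strand, and *Hsp70Bb* is a near-identical copy of other Hsp70 genes. Among 16 tested heat shock and protein folding genes, 3 departed (*Hsp70Bb*, *Hsc70-2* and *Hsp70Bc*), all lower (1.29% of all tested genes did), with a median of -0.25. *tio*, which some KK insertions are known to misexpress, had 16.4, 17.5 and 14.1 CPM in *Cbp20/dlg1*, 19.04, 20.8 and 18.6 in *Cbp20*, 18.8, 19.8 and 21.7 in *dlg1* and 19.6, 20.9 and 22.4 in Control GD, and its departure did not pass the threshold (-0.22 ± 0.13, FDR = 0.272).

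Some other values of this set depended on single libraries or on the choice of control. *Diedel*, which encodes a secreted modulator of immunity, had 2.94, 0.764 and 1.10 CPM in *Cbp20/dlg1*, 0.263, 0.172 and 0.245 in *Cbp20*, 1.48, 1.23 and 1.65 in *dlg1* and 0.812, 1.01 and 30.1 in Control GD. Its departure (5.73 ± 1.57, FDR = 0.0152) was the largest positive one of the genes of at least 5 CPM. It rests on Control GD replicate 3, without which it was 2.17 (FDR = 0.0552), and the call was also lost without *Cbp20/dlg1* replicate 1 (4.92, FDR = 0.0591), with the Control KK baseline (2.41, FDR = 0.304) and with the newer edgeR estimation. *CG4757* had 16.1, 22.96 and 11.7 CPM in the pair, 6.70, 5.56 and 4.21 in *Cbp20*, 9.57, 22.9 and 17.5 in *dlg1* and 49.0, 115 and 38.4 in Control GD, and its departure (3.65 ± 1.23, FDR = 0.0461) was lost in 14 of the 15 fits without 1 library, with values of 3.01 to 3.94, and kept without Control GD replicate 3. With the Control KK baseline it was 0.42 (FDR = 0.838). *Obp28a*, an antennal odorant-binding protein gene, had 5.59, 12.1 and 6.21 CPM in *Cbp20/dlg1*, 11.2, 8.88 and 4.90 in *Cbp20*, 7.62, 6.05 and 5.99 in *dlg1*, 21.1, 17.7 and 16.5 in Control GD and 5.82, 6.79 and 7.36 in Control KK. Control GD alone was high, and the departure of 1.40 ± 0.37 (FDR = 0.0129) became -0.06 (FDR = 0.925) with the Control KK baseline and 0.97 (FDR = 0.0507) without *Cbp20/dlg1* replicate 2. The summed level of the antennal list was 40.8 to 114 CPM in *Cbp20/dlg1*, 38.8 to 138 in *Cbp20*, 22.3 to 42.4 in *dlg1*, 60.8 to 146 in Control GD and 20.2 to 22.2 in Control KK. The median departure of its 12 tested genes was 1.86, and *Obp28a* was the only 1 of them that departed (8.33%, against 4.41% of all tested genes). Its part in the departure of *Obp28a* was not tested. The eggshell gene *yellow-g* departed by 1.88 ± 0.32 (FDR = 2.86e-04) at levels under 3 CPM. Its libraries of the pair, like those of Control GD, lay above those of both single knockdowns.

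No single group stood apart for 64 genes, 27 of which also differed between the controls. *Cpr64Ac*, a cuticle protein gene that overlaps *CG43367* on the opposite strand, had 2.35, 2.90 and 3.36 CPM in *Cbp20/dlg1*, 1.14, 0.515 and 0.833 in *Cbp20*, 6.43, 5.49 and 5.99 in *dlg1*, 19.4, 20.3 and 19.5 in Control GD and 0.433, 0.502 and 0.272 in Control KK. The pair lay between the KK and GD groups, and the departure of 3.54 ± 0.27 (FDR = 5.78e-08) turned to -2.08 (FDR = 3.32e-04) with the Control KK baseline. *lncRNA:CR45284* had 12.4, 13.9 and 7.96 CPM in the pair, 16.7, 16.1 and 18.7 in *Cbp20*, 3.62, 2.69 and 4.29 in *dlg1*, 0.135, 0.0373 and 0.150 in Control GD and 12.5, 13.8 and 13.8 in Control KK. All 3 Control GD libraries were at or near the floor and those of Control KK were not. The departure was -5.58 (FDR = 5.78e-08) with Control GD and 1.33 (FDR = 6.49e-04) with Control KK as the baseline. *Cyp12d1-d*, a P450 gene with a near-identical neighboring copy, had 2.94, 3.26 and 4.06 CPM in *Cbp20/dlg1*, 0.832, 1.13 and 0.882 in *Cbp20*, 0.238, 0.280 and 0.200 in *dlg1*, no counts in Control GD and 1.68, 2.01 and 1.91 CPM in Control KK. Its departure has therefore no definite size, and it was -3.64 with Control GD and 4.77 with Control KK as the baseline. Without replicate 1, 2 or 3 of Control GD its FDR was 0.0719 to 0.0844. *Amy-d*, an amylase gene with a near-identical copy, had 15.3, 20.3 and 26.1 CPM in *Cbp20/dlg1*, 4.42, 4.29 and 3.77 in *Cbp20*, 9.85, 19.1 and 12.4 in *dlg1* and 9.24, 6.93 and 12.9 in Control GD, with *Cbp20* lowest (1.80 ± 0.39, FDR = 0.00299).

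Several lists held no departing gene. None was called among 19 tested synaptic vesicle and active zone genes (median -0.21), 18 *dlg1* scaffold and polarity partners (-0.15) or 17 genes of the cap-binding complex, small RNA pathways and nonsense-mediated decay (-0.08). As 4.41% of all tested genes departed, lists of this size would hold few or none at the same share, and these counts do not set the lists apart. Medians were 0.07 over 15 apoptosis genes, 0.26 over 23 cell cycle and replication genes, 0.04 over 18 photoreceptor genes and 0.06 over 25 nuclear genes of oxidative phosphorylation, and none of these genes departed. The same held for 9 circadian clock, 9 flight muscle and 6 activity-regulated transcription factor genes. Of 7 genes of neuron and glia identity, *alrm* alone departed (14.3%, against 4.41% of all tested genes). The 13 mitochondrially encoded genes were listed at 0 in every library. Departures below the fold threshold are not counted here, and of all tested genes 1910 had an FDR under 0.05 at any size.

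The *Cbp20/Fsn* libraries, which combine *Cbp20* with a GD hairpin against *Fsn*, do not enter the contrast. For 211 of the 224 genes with *Cbp20* apart, the mean of *Cbp20/Fsn* was nearer to *Cbp20/dlg1* than to *Cbp20*. The choice of genes already places *Cbp20* away from the other groups for these genes, so this count is a description. *CG3699* averaged 31.2 CPM in *Cbp20/dlg1* and 21.8 CPM in *Cbp20/Fsn*, against 0.992 CPM in *Cbp20*, and *dyw* averaged 0.923 CPM in *Cbp20/dlg1* and 1.11 CPM in *Cbp20/Fsn*, against 34.3 CPM in *Cbp20*. Likewise, for 73 of the 78 genes with *dlg1* apart, the mean of *Fsn*, also of the GD collection, was nearer to Control GD than to *dlg1*. *NimC1* averaged 22.6 CPM in *Fsn*, 10.4 CPM in *dlg1* and 36.2 CPM in Control GD. Of the genes with the pair apart, *CG9759* averaged 1.99 CPM in *Cbp20/dlg1* and 3.18 CPM in *Cbp20/Fsn*, against 20.7 CPM in *Cbp20*, whereas *CG16926* averaged 67.8 CPM in *Cbp20/dlg1*, 30.2 CPM in *Cbp20/Fsn* and 10.9 CPM in *Cbp20*.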

How the data were processed

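Whole-head RNA was sequenced from 3 biological replicates in each of 7 groups. Per the labels and the study's methods, the authors used Trimmomatic 0.36 for trimming and TopHat2 2.1.1 for alignment to build 6.08 of the fly genome, and the deposited values are HTSeq 0.6.1 counts per gene, not normalized, with a column for each sequencing batch. The strand setting of the counting was not given in the sources used here, so reads of genes that overlap on opposite strands may not be told apart. Batches of a library (2 or 3) were summed, and the 5 HTSeq summary rows, 24.7 to 65.2% of the reads of a library, were left out. Of 17559 counted genes, 17253 matched a symbol. Coordinates and overlaps are from the BDGP6.54 annotation, a later annotation of the same assembly.

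Departures were fitted with edgeR 4.0.16 in R 4.3.3 (filterByExpr, TMM, quasi-likelihood test with legacy estimation), in 1 model of all 21 libraries with 1 coefficient per group, for 10558 genes. The 2 thresholds are a log2 change beyond 1 and an FDR under 0.05. SE is the absolute log2 change divided by the square root of F. The procedure was run on simulated counts with departures planted in *Cbp20/dlg1* alone, in genes with a mean above 5 CPM. That run does not cover genes near the floor or departures that come from another group. Replicate numbers were checked and do not pair the samples. Members and gene lists were chosen with earlier results of these data known. Genes named by rule are the targeted genes, *w*, *tio*, *Glt* and *nAChRbeta3*, list members past the threshold, and the 12 largest departures in each direction among genes of at least 5 CPM in the highest group. Alternatives were the size factors, DESeq2 1.42.0, newer edgeR estimation, filters, thresholds, the baseline, batches, the replicate block and leaving out each library. The 24 lists held 385 entries. Tables and figures were made with Python 3.11.15, pandas 2.3.3 and matplotlib 3.10.9.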

Additional observations from a re-analysis of the deposited data

Results flagged for a closer look

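Reads that aligned to more than 1 place are outside the gene counts. They made up 59.1, 29.7 and 38.5% of the reads of *dlg1* replicates 1, 2 and 3, against 19.9 to 26.1% in Control GD. Their part in the *dlg1* values was not tested.

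For 9 of the 466 departing genes, adding the *dlg1* hairpin to *Cbp20* and knocking down *dlg1* alone gave effects past the threshold in opposite directions. The departure is the difference of these effects, so genes picked in this way have a large one by construction, and the count is a description. For *lcs* the effect was -1.80 on top of *Cbp20* and 6.10 alone (departure -7.89), for *CG5246* -2.88 on top of *Cbp20* and 2.83 alone (-5.71), for *Def* -1.18 on top of *Cbp20* and 4.11 alone (-5.29), for *CG11700* -2.59 on top of *Cbp20* and 1.30 alone (-3.89) and for *CG18473* -1.40 on top of *Cbp20* and 1.24 alone (-2.64). In the other direction it was 1.51 on top of *Cbp20* and -1.02 alone for *BomBc3* (departure 2.52), 1.68 on top of *Cbp20* and -1.20 alone for *Sid* (2.88), 1.81 on top of *Cbp20* and -1.72 alone for *Cpr64Ac* (3.54) and 2.78 on top of *Cbp20* and -1.16 alone for *Mdr50* (3.94). The effect on top of *Cbp20* compares a pair of mixed background with a KK line, so that knockdown and background cannot be told apart in it. *CG11700*, *CG18473* and *Mdr50* were chosen after their values were seen. *CG11700* had 1.39, 1.68 and 1.75 CPM in *Cbp20/dlg1*, 9.89, 9.50 and 9.60 in *Cbp20*, 0.619, 0.617 and 1.05 in *dlg1*, 0.496, 0.336 and 0.112 in Control GD and 8.52, 7.57 and 8.25 in Control KK, so that it was high in *Cbp20* and in its control, and with the Control KK baseline its departure turned to 0.81 (FDR = 0.0779). *Mdr50* had 0.714, 0.916 and 0.501 CPM in *Cbp20/dlg1*, 0.0875, 0 and 0.245 in *Cbp20*, 1.999, 3.31 and 1.30 in *dlg1*, 4.69, 5.22 and 4.75 in Control GD and 0.337, 0.182 and 0.234 in Control KK. It was low in both KK groups, near the floor of 3 counts in *Cbp20*, and its departure turned to -0.32 (FDR = 0.841) with the Control KK baseline. With that baseline *Sid* also lost its call and *Cpr64Ac* turned sign, as given above.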

How the results depend on the processing

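RLE size factors (448 departing genes), DESeq2 (448), the newer edgeR estimation (456), no filter on low counts (468) and the 15 libraries alone (488) stayed within 1.5 times the count of 466. The replicate numbers do not pair the samples: over 18 pairs of libraries with the same number the correlation of deviations averaged -0.03 (-0.20 to 0.31), 3 of 12 libraries correlated best with their own number, and with the replicate block 453 genes departed, 447 of them shared. Without a fold threshold, 1910 genes departed (1316 higher, 594 lower), driven by *Cbp20/dlg1* in 532, *Cbp20* in 736, *dlg1* in 221, Control GD in 132 and no single group in 289, and 547, 1069 and 477 also passed in the pair, *Cbp20* and *dlg1* effects, against 71, 170 and 96 of the 466. At an FDR of 0.01, 80 genes were lower, 20 were driven by Control GD, 40 by no single group and 47 also passed in the pair. With Control KK as the baseline of *dlg1*, 710 departed (504 higher, 206 lower), 160 with *dlg1* and 147 with the control apart, and 47 also passed in the pair and 257 in *Cbp20*. The stricter rule that the range of the other groups be under a smaller share of the departure left 5 genes to *Cbp20/dlg1*, 67 to *Cbp20*, 31 to *dlg1*, 10 to Control GD and 140 to no single group, with *Cbp20/dlg1* and Control GD on the same side of both single knockdowns in the rest. At least 10 counts in each of the 12 libraries gave 87 lower genes, with 46 also past the threshold in the pair and 57 in *dlg1*. The first batch alone gave 38 genes with no single group apart and 46 that also passed in the pair. The causes were not tested.

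Leaving out 1 library gave 412 to 481 departing genes, 286 to 344 higher and 109 to 175 lower, with 49 to 101 driven by *Cbp20/dlg1*, 194 to 243 by *Cbp20*, 63 to 90 by *dlg1*, 28 to 41 by Control GD and 48 to 63 by no single group. Of them 57 to 79 also passed in the pair, 148 to 187 in *Cbp20* and 83 to 102 in *dlg1*. The 101 came without *Cbp20/dlg1* replicate 1. Of 55 named departing genes, 31 kept their call under every alternative on the log2 scale and 24 lost it under at least 1. With the Control KK baseline the sign turned for *Cpr64Ac* (-2.08), *lncRNA:CR40469* (0.78), *CG31157* (0.68), *lncRNA:CR45284* (1.33), *Obp28a* (-0.062), *Hsc70-2* (0.91) and *Cyp12d1-d* (4.77), for *CG11700* and *Mdr50* among the genes chosen after their values were seen, and on the linear CPM scale for *Cyp12d1-d* (2.23 CPM). The first batch alone lost the calls of *lncRNA:CR40469*, *CG8708*, *AttD*, *Obp83cd*, *exu*, *Col4a1*, *Ppn*, *Cyp6a23* and *Cyp12d1-d*, DESeq2 those of *aub*, *Col4a1*, *alrm* and *Cyp12d1-d*, RLE size factors those of the first 3 of these, and the newer edgeR estimation those of *Diedel* and *CG8708*. Genes near the floor of 3 counts have departures of uncertain size.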

Other observations

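The neprilysin-like genes, a family of metallopeptidases counted after the values were seen, also departed in one direction. Of 17 tested, 9 departed, all higher than the sum (3.13% of all tested genes did), with a median of 1.01 against 0.000437 over all tested genes. *Nepl18* had 29.4, 37.2 and 44.5 CPM in *Cbp20/dlg1*, 13.7, 10.5 and 15.5 in *Cbp20*, 26.7, 24.8 and 22.1 in *dlg1*, 27.2, 24.8 and 26.97 in Control GD and 37.7, 31.9 and 37.8 in Control KK, so that *Cbp20* was lowest (1.59 ± 0.20, FDR = 1.17e-05). *Nepl21*, which overlaps *CG33203* on the opposite strand, had 74.0, 89.9 and 94.0 CPM in *Cbp20/dlg1*, 43.2, 45.6 and 47.6 in *Cbp20*, 56.5, 55.8 and 53.5 in *dlg1*, 69.4, 67.4 and 74.0 in Control GD and 84.3, 86.4 and 90.8 in Control KK, and the pair stood apart at the level of Control KK (1.26 ± 0.11, FDR = 2.23e-07).

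Of 76 tested cytochrome P450 genes, a family counted in the same way, 9 departed higher and 3 lower, with a median of 0.39, against 3.13% higher and 1.29% lower over all tested genes.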
